A study of Mus musculus with 28 samples.

Results

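Loss of Tet2 was examined by RNA-seq in mouse embryonic stem cells (ESCs) by setting 2 Tet2-KO clones, which carry a knockout of Tet2, against 3 independent Tet2-WT cultures. These are 5 of the 28 samples of the series, and 17338 of the 17342 genes in the table were compared, those with a normalized count of at least 10 in at least 2 of the 7 RNA-seq libraries. The other 2 RNA-seq libraries are Tet2-Mut clones, which enter the estimate of the spread and are shown for reference. All 7 libraries derive from V6.5, a male hybrid ESC line of the 129 and C57BL/6 strains grown in serum with LIF, a cytokine that sustains self-renewal. The cells had been kept on feeder fibroblasts, were freed of them by pre-plating and spent a night on gelatin before RNA was extracted. The labels describe neither the sequence removed in Tet2-KO nor the change in Tet2-Mut. Each Tet2-KO and Tet2-Mut library is 1 clone, so that a property of a clone and an effect of its genotype cannot be told apart, and the p-values measure only the spread between these libraries.

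Tet2 is one of the Tet dioxygenases, which oxidize 5-methylcytosine in DNA and so open a route to demethylation, and it also binds partners such as the glycosyltransferase Ogt. The series asks about functions of Tet2 beyond that catalysis. In serum and LIF, ESCs express naive pluripotency factors together with varying amounts of formative and primed genes, which are set up as cells prepare to differentiate. Wnt signalling, carried by secreted Wnt proteins, Frizzled receptors and beta-catenin, is the pathway that induces T (brachyury) and the primitive streak. Methylation of CpG-rich promoters is the known brake on a class of germline genes, and parental methylation marks set the expression of imprinted genes.

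The totals of reads assigned to genes were between 41909397 and 58476612 per library. The Tet2-WT cultures lay closer to one another (chi-square per degree of freedom between 7.13 and 13.2 over genes) than the 2 Tet2-KO clones did (33.3). Every pair of libraries differed by more than sampling noise. A floor of 3 reads corresponds to a normalized count of 2.50 to 3.54, which limits statements on genes at or near 0. The 8 ESC markers were all expressed. Pou5f1, the central pluripotency factor, stood at 52319, 55480.3 and 58392 in the Tet2-WT libraries and 52412 and 58247 in the Tet2-KO libraries, and Nanog at 25897, 23922 and 24977 in the Tet2-WT libraries and 20672 and 24589 in the Tet2-KO libraries. The 8 markers summed to between 244128 and 250024 in Tet2-WT and to 231861 and 269174 in Tet2-KO, so these ranges overlapped. Fibroblast markers were also detected. Of 10 defining markers 8 are in the table, 3 of them were higher in Tet2-KO (Col1a1, Col1a2 and Prrx1), none was lower, and their sum was 1401 to 1632 in Tet2-WT, and 4199 and 2835 in Tet2-KO replicates 1 and 2. Dcn and Lum, which define fibroblasts of many tissues, are not in the table. In these bulk libraries more cells of a type and more RNA per cell cannot be told apart.

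Tet2 itself (chromosome 3, 133463677 to 133545136, mm10) had normalized counts of 10343, 10244 and 12074 in Tet2-WT, 9992 and 13181 in Tet2-Mut and 4624 and 5206 in Tet2-KO. Both Tet2-KO libraries were below every other library, and the Tet2-WT and Tet2-Mut values overlapped. The Tet2-KO level was below that of Tet2-WT (log2 fold change -1.15, SE 0.12, limma adjusted p = 0.00522). Reads remained at Tet2 in both clones. The values cover the whole gene and do not show which exons they came from.

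Tet2-KO cells differed from Tet2-WT cells in 1025 genes at a limma adjusted p under 0.05, which is 5.91% of those tested and is the rule behind "called", "higher" and "lower" below. Of these, 521 (3.0% of the genes tested) were higher and 504 (2.91%) were lower. A change of at least 2-fold was found in 244 (1.41%) of the higher and 131 (0.756%) of the lower genes. The higher genes had the larger shifts, with a median log2 fold change of 0.93 against -0.67 for the lower genes. They also began at lower levels, with a median Tet2-WT mean of 527 normalized counts against 1629 for the lower genes and 608 for all genes. Nearly all were protein coding (510 higher and 482 lower), beside 8 higher and 13 lower long noncoding RNAs. The called genes held no case in which a Tet2-KO library overlapped a Tet2-WT library. Such a separation, where stated below or in a figure for a called gene, therefore adds nothing to its call. Of all genes tested, 21.9% had both Tet2-KO libraries above and 22.8% both below all Tet2-WT libraries. Tet2-KO replicate 1 was the further from Tet2-WT in 468 of the 521 higher genes (89.8%) and in 376 of the 504 lower genes (74.6%). Tet2-KO differed from Tet2-Mut in 458 higher (2.64%) and 616 lower (3.55%) genes, a contrast used below for single genes only. The median of the higher genes was 1.14 above the Tet2-WT mean in replicate 1 and 0.76 in replicate 2.

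**Figure D1:**
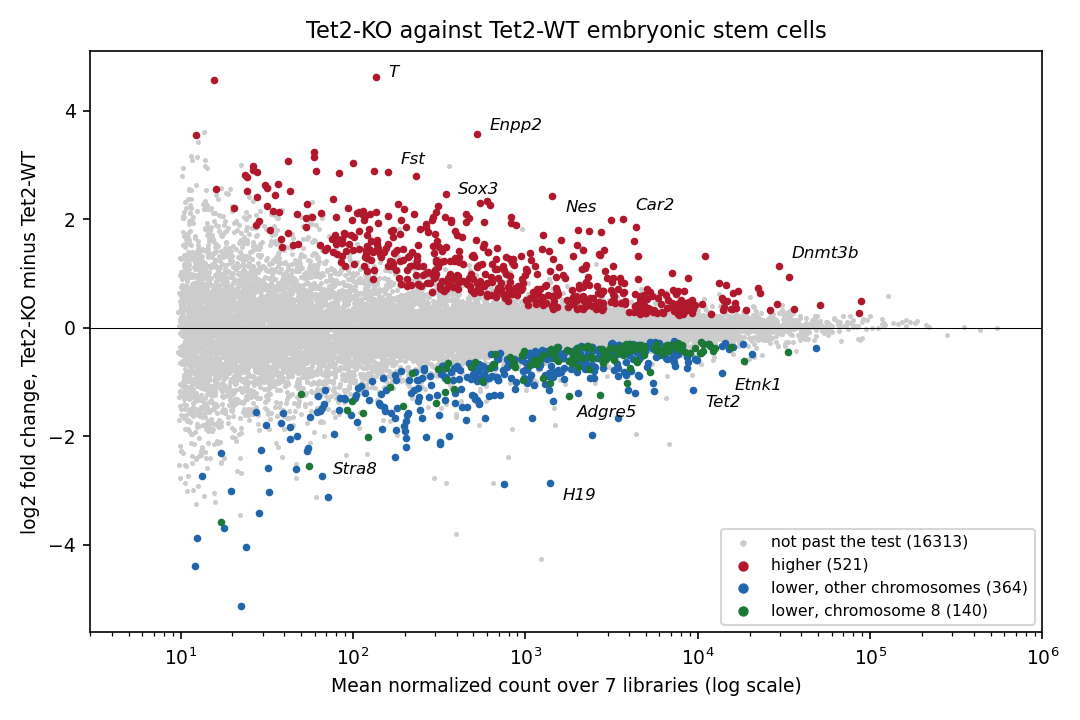
Log2 fold change of Tet2-KO over Tet2-WT (vertical axis) against the mean normalized count of the 7 libraries (horizontal, log scale), 1 point per gene tested. Red points are the 521 higher genes, blue the 364 lower genes outside chromosome 8 and green the 140 lower genes on chromosome 8, most of which lie close to the zero line.

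The counts of called genes rested on the Tet2-WT libraries and on Tet2-KO replicate 1. They were 58 higher and 36 lower without Tet2-WT replicate 1, 61 and 38 without replicate 2, 54 and 31 without replicate 3, and 78 and 77 without Tet2-KO replicate 1. Without Tet2-Mut replicate 1 they were 1053 and 1107, and without Tet2-Mut replicate 2 they were 1050 and 1093. Without Tet2-KO replicate 2 they were 648 and 654. A core of 65 genes (0.375% of those tested), 41 higher and 24 lower, was called with all libraries and with each of the 7 left out in turn. Genes outside this core that are named below lost their call in at least one of these fits. Those inside it are called core genes, and many of them were picked for naming after their values were seen.

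Among the 41 higher core genes were secreted and membrane proteins, described here, and T and Sox3, described with their lists. Enpp2, which encodes autotaxin, the secreted enzyme that makes lysophosphatidic acid, had 138, 134 and 94.4 in Tet2-WT, 265 and 122 in Tet2-Mut and 1776 and 1155 in Tet2-KO (chromosome 15, 54838901 to 54952789; log2 fold change 3.56, SE 0.34, limma adjusted p = 0.00522). Both Tet2-KO values stood far above those of the other 5 libraries. Fst encodes follistatin, a secreted antagonist of activin, and had 41.6, 69.7 and 49.6 in the Tet2-WT libraries and 499.6 and 304 in the Tet2-KO libraries (log2 fold change 2.87, SE 0.32, limma adjusted p = 0.00533). Shisa6, an accessory protein of glutamate receptors, had 121, 136 and 153 in the Tet2-WT libraries and 778 and 535 in the Tet2-KO libraries, and Sema6a, a guidance semaphorin, 593, 575 and 588 in the Tet2-WT libraries and 4142 and 2401 in the Tet2-KO libraries. In both genes each Tet2-KO library exceeded all Tet2-WT libraries. The uncharacterized gene 9130008F23Rik stood at a log2 fold change of 2.20. The growth hormone receptor Ghr was at a log2 fold change of 2.09, the ectonucleotidase Nt5e (CD73) at 2.04, the hyaluronan synthase Has2 at 1.98, the matrix glycoprotein Tnc at 1.94 and the growth factor binding protein Igfbp3 at 1.80. Car2, a cytosolic carbonic anhydrase, was among the more abundant of these genes and had 1563, 1534 and 1594 in the Tet2-WT libraries and 8191 and 4860.3 in the Tet2-KO libraries. Mycn, a Myc family factor of proliferating stem cells, rose by a smaller 0.68, as did Sgk1, a serum-inducible kinase, by 0.52.

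The 24 lower core genes were of mixed function. Adgre5 (CD97), an adhesion receptor of leukocytes that many other cells carry, had 2074, 2046 and 2185 in Tet2-WT, 2276 and 2194 in Tet2-Mut and 864 and 899 in Tet2-KO. The 2 Tet2-KO values lay close together and were less than any of the other 5 (log2 fold change -1.25, SE 0.08, limma adjusted p = 0.00144). Nos3, the endothelial nitric oxide synthase, had 547, 511 and 613 in the Tet2-WT libraries and 153 and 190.2 in the Tet2-KO libraries (log2 fold change -1.70, SE 0.17, limma adjusted p = 0.00522), and it differed from Tet2-Mut as well, by -1.74 (adjusted p = 0.00382). Etnk1, an ethanolamine kinase of phospholipid synthesis, fell by a smaller amount at a high level, from 16185 ± 466 to 9054 ± 156 (log2 fold change -0.84, SE 0.06, limma adjusted p = 0.00288). Cpt1a, the carnitine transferase that lets fatty acids enter mitochondria, was at -0.92, and Ddc, which makes dopamine and serotonin from their precursors, at -0.93. Tns1, a focal adhesion protein, and Zbtb10, a zinc finger factor, were lower than Tet2-WT by -1.32 and -0.94 but near the Tet2-Mut level, from which they differed by -0.07 (adjusted p = 0.827) and -0.18 (adjusted p = 0.456). The kallikrein gene Klk1b22 had 44.1, 33.9 and 25.96 in the Tet2-WT libraries and 0 and 0 in the Tet2-KO libraries, so that neither clone gave a read. It belongs to a family of near-identical copies, so how its reads were assigned is uncertain.

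Genes of chromosome 8 as a whole stood a little lower in Tet2-KO. Of its 861 genes tested, 140 were lower and 11 higher, 80.8% had a negative fold change, and the median log2 fold change was -0.26. Over all 17338 genes tested, 8731 had a negative fold change. The median per library, relative to the Tet2-WT mean, was -0.28 and -0.24 in the 2 Tet2-KO clones, between -0.03 and 0.05 in the Tet2-WT cultures, and 0.28 and 0.27 in the Tet2-Mut clones. The shift ran along the whole chromosome, with medians between -0.33 and -0.20 in each of 7 windows of 20 Mb. No other chromosome with more than 7 genes moved as far, their medians lying between -0.04 and 0.07. The X chromosome, with a median of 0.07, had the largest share of higher calls, 44 of 568 genes (7.75%, against 3.0% of all genes). Genes of chromosome 8 made up 27.8% of the lower calls, against 5.35% of the tested genes that could be placed on a chromosome. Outside it 510 genes were higher and 364 lower, and the median of the lower calls was -0.77. The abundant genes in the chromosome 8 group included the deadenylase scaffold Cnot1 (from 34685 ± 1188 to 25494 ± 809, SD, n = 3 and 2, log2 fold change -0.44, adjusted p = 0.00979), the protease Mbtps1 that activates sterol regulators (-0.42), the lysosomal protein Lamp1 (-0.35), the retromer subunit Vps35 (-0.38) and the nucleoporin Nup133 (-0.34). Of the genes described in other paragraphs, the lower genes Adgre5, Sfrp1, Dpep3, Nanos3, Gdf15, Hmox1 and Slc25a15 and the higher genes Efnb2 and Cdh11 lie on chromosome 8, as do Cdh1, Sox1 and Sap30, which were not called. The 7 Y-linked genes tested summed to 2077 to 2248 in Tet2-WT, and to 200.2 and 5622 in Tet2-KO replicates 1 and 2. In Tet2-Mut replicates 1 and 2 the sums were 11492 and 128.3, so clones of both genotypes lay above and below Tet2-WT. Leaving out Tet2-WT replicates 1, 2 and 3 and Tet2-KO replicate 1 one at a time, limma called 9, 7, 6 and 11 of the 861 chromosome 8 genes. Limma called 274 of the chromosome 8 genes (21 higher, 253 lower) without Tet2-Mut replicate 1, and 272 of the chromosome 8 genes (22 higher, 250 lower) without Tet2-Mut replicate 2. The part of gene dosage in these chromosome-wide values was not tested.

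**Figure D2:**
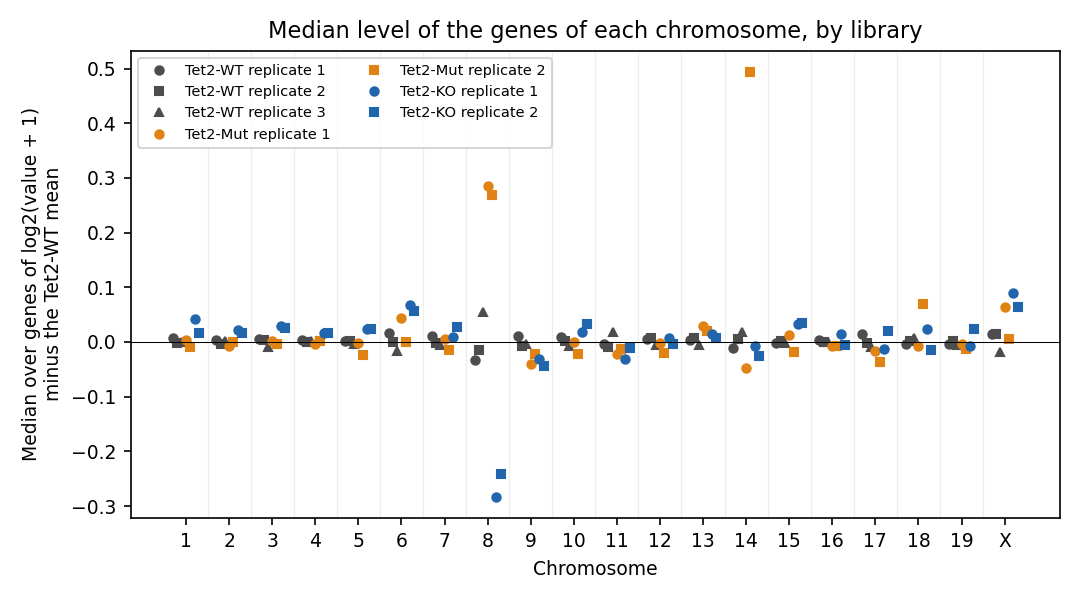
Median over the genes of each chromosome of log2(value + 1) minus the Tet2-WT mean (vertical axis), for each library, with the Y chromosome left out. Both Tet2-KO clones lie at -0.28 and -0.24 on chromosome 8, where both Tet2-Mut clones lie at 0.28 and 0.27. Tet2-Mut replicate 2 also stands at 0.49 on chromosome 14.

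A minority of Wnt ligands, receptors and target genes passed the test, most of them higher in Tet2-KO. Of 12 Wnt ligands tested, 4 were higher and 0 lower, with a median log2 fold change of 1.01 against -0.00 over all genes. Wnt3, the ligand required to form the primitive streak, had 43.3, 64.02 and 33.05 in the Tet2-WT libraries and 378 and 306 in the Tet2-KO libraries (chromosome 11, 103774175 to 103818021; log2 fold change 2.89, SE 0.38, limma adjusted p = 0.00785). Wnt8a, a ligand of the early streak, had 64.1, 26.4 and 17.7 in the Tet2-WT libraries and 296 and 232 in the Tet2-KO libraries (log2 fold change 3.03, adjusted p = 0.0207). Both genes were low in all 3 Tet2-WT libraries, and neither group reached the range of the other. Wnt4 had 91.5, 122 and 80.3 in the Tet2-WT libraries and 421 and 263 in the Tet2-KO libraries, and Wnt5a, which mostly signals without beta-catenin, had 84.9, 65.9 and 89.7 in the Tet2-WT libraries and 219 and 194 in the Tet2-KO libraries. Their log2 fold changes of 1.77 and 1.36 were smaller, again without overlap. All 4 also differed from Tet2-Mut, by 2.76 (adjusted p = 0.00717), 3.04 (adjusted p = 0.0228), 1.89 (adjusted p = 0.0146) and 1.21 (adjusted p = 0.0422). Other ligands pointed the opposite way without a call. Wnt7b, with the highest counts of the list, had 3088, 2950.4 and 2357 in the Tet2-WT libraries and 1251 and 2116 in the Tet2-KO libraries (log2 fold change -0.77, adjusted p = 0.1098), and Wnt3a had 143, 185 and 198 in the Tet2-WT libraries and 67.1 and 41.4 in the Tet2-KO libraries (log2 fold change -1.70, adjusted p = 0.0994). The summed counts of the 12 ligands overlapped, at 2956 to 3752 in Tet2-WT and 3024 and 3427 in Tet2-KO.

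Of 26 receptors and secreted modulators, 3 were higher and 1 lower. Fzd2, a Frizzled receptor, had 536, 597 and 544 in the Tet2-WT libraries and 1573 and 1066 in the Tet2-KO libraries (log2 fold change 1.21, adjusted p = 0.0161), and Ror1, a receptor kinase for Wnt5a, 94.9, 136 and 66.1 in the Tet2-WT libraries and 475 and 395 in the Tet2-KO libraries (log2 fold change 2.18, adjusted p = 0.0336). The secreted antagonists of the Sfrp family went in both directions. Sfrp1 fell, with 3030.0, 3409 and 3172 in the Tet2-WT libraries and 1212 and 1532 in the Tet2-KO libraries (log2 fold change -1.23, SE 0.17, limma adjusted p = 0.00857), and Sfrp2 rose, with 319, 346 and 304 in the Tet2-WT libraries and 662 and 596 in the Tet2-KO libraries (log2 fold change 0.96, adjusted p = 0.0178). Sfrp1 lies on chromosome 8, whose median is -0.26. Of 17 target genes, 4 were higher and 0 lower, with a median of 0.40. Sp5, a zinc finger repressor that beta-catenin induces directly, had 63.2, 54.6 and 127 in Tet2-WT, 103 and 199 in Tet2-Mut and 625 and 453 in Tet2-KO (log2 fold change 2.79, SE 0.40, limma adjusted p = 0.00979). The receptor Tnfrsf19 (Troy), a core gene, had 234, 279.6 and 255 in the Tet2-WT libraries and 1023 and 657 in the Tet2-KO libraries (log2 fold change 1.68, SE 0.20, limma adjusted p = 0.00551). The cyclin gene Ccnd1 rose by 0.68. In Sp5 and Tnfrsf19 the Tet2-KO values exceeded all others, Tet2-Mut included, from which they differed by 1.89 (adjusted p = 0.0384) and 1.59 (adjusted p = 0.004897).

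Sp5 and Tnfrsf19 are shown by sequence because both carry CTTTGAT in the 250 bases before a start. It is the core of the site that the Tcf and Lef partners of beta-catenin bind. Sequences are from RefSeq (GRCm38.p6), written 5′ to 3′ on the gene's own strand, with the match in capitals. The Sp5 window is chr2:70474673-70474922 on the plus strand with the match 104 to 98 bases before the start. The Tnfrsf19 window is chr14:61037988-61038237 on the minus strand with the match, on its opposite strand, 202 to 196 bases before the start. Tnfrsf19 has 2 listed starts. The one shown holds the match and lies inside the gene span (60963834 to 61046855).
Sp5: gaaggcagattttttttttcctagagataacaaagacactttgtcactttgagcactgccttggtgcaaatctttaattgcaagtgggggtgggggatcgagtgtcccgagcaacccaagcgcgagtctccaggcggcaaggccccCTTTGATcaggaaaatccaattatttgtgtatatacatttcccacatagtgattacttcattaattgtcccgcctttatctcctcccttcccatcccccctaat
Tnfrsf19: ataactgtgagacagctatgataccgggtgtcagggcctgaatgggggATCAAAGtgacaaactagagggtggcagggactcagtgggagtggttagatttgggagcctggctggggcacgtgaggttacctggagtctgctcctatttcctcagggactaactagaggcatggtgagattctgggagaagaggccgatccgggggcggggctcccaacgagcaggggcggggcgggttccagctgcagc
The motif was searched on both strands. Of 10 Wnt targets with a promoter in the table it was in 2, and of all 12101 genes tested with one it was in 337 (2.79%). Among called genes the share was 2.53% of the higher and 2.42% of the lower, close to that of all genes, and of 19 streak genes 1 held it. A match describes these letters in this window only.

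The primitive streak and early mesoderm genes, which Wnt signalling induces in the embryo, were higher in part. Of 24 tested, 8 were higher and 0 lower, with a median log2 fold change of 0.78. Of these 8, Wnt3 and Wnt8a were also counted among the called ligands above and T among the called targets. The counts of these lists are therefore not independent. T, the founding T-box factor of the streak and a core gene, had 14.1, 30.1 and 9.44 in Tet2-WT, 27.8 and 15.4 in Tet2-Mut and 520.2 and 333 in Tet2-KO (chromosome 17, 8434423 to 8442496; log2 fold change 4.62, SE 0.51, limma adjusted p = 0.00522). Both Tet2-KO libraries stood far above the other 5, in which T was near the lower end of what was measured. Fgf8, the streak FGF, had 14.98, 21.7 and 23.6 in the Tet2-WT libraries and 189.9 and 121 in the Tet2-KO libraries (log2 fold change 2.88, adjusted p = 0.0187), and Lhx1, a LIM homeobox factor of the organizer, 9.99, 13.2 and 7.08 in the Tet2-WT libraries and 73.3 and 83.7 in the Tet2-KO libraries (log2 fold change 2.88, adjusted p = 0.0156). Cdx2, a caudal factor of posterior mesoderm and of trophectoderm, had 11.7, 18.8 and 14.2 in the Tet2-WT libraries and 103 and 68.2 in the Tet2-KO libraries (log2 fold change 2.44, adjusted p = 0.0184). These genes were at low levels in Tet2-WT and separate from it in both clones. The homeobox gene Evx1 and the zinc finger factor Snai1, which represses E-cadherin, were also called, at 1.80 and 1.06. Other streak regulators did not pass. Mixl1 had 16.6, 22.6 and 33.05 in the Tet2-WT libraries and 70.2 and 53.8 in the Tet2-KO libraries (log2 fold change 1.37, adjusted p = 0.145), Eomes 578, 667 and 587 in the Tet2-WT libraries and 843 and 676 in the Tet2-KO libraries (log2 fold change 0.31, adjusted p = 0.289), and Mesp1 4.99, 7.53 and 7.08 in the Tet2-WT libraries and 6.19 and 12.4 in the Tet2-KO libraries (log2 fold change 0.40, adjusted p = 0.736). Calls by limma numbered 2, 1, 1 and 0 of the 12 ligands, 1, 0, 0 and 0 of the 26 receptors and modulators, 2, 2, 3 and 2 of the 17 targets, and 3, 2, 2 and 1 of the 24 streak genes when Tet2-WT replicates 1, 2 and 3 and Tet2-KO replicate 1 were dropped in turn. In the fits with 0 calls, 4 to 9 members were under 0.05 before adjustment and edgeR gave 0 to 1. The calls were 7 of the ligands (5 higher, 2 lower) and 9 of the streak genes (8 higher, 1 lower) without Tet2-Mut replicate 1 or 2, and 5 of the ligands (4 higher, 1 lower) without Tet2-KO replicate 2. Lhx1, Cdx2 and Wnt8a were at low counts in Tet2-WT, where fold changes are least precise.

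**Figure D3:**
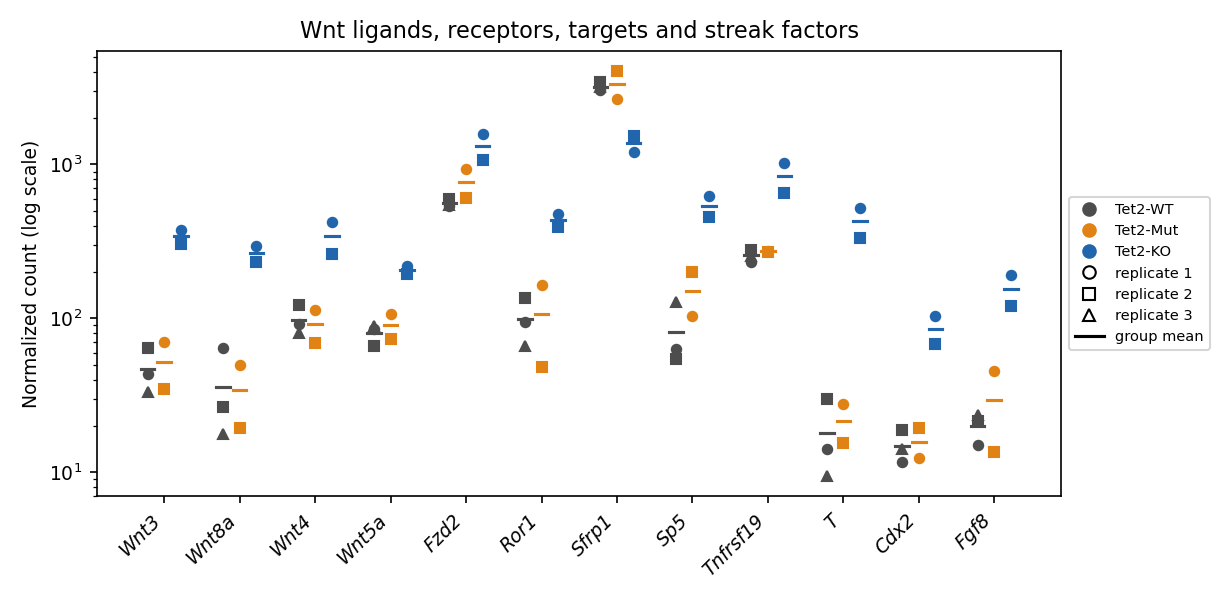
Normalized counts (log scale) of Wnt ligands, receptors, targets and streak factors in each library. Points are libraries and lines are group means. For 11 of the 12 genes both Tet2-KO clones (blue) lie above all Tet2-WT cultures (grey), and for Sfrp1 both lie below. Every called gene shows such a separation.

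Signals of the TGF-beta family were called in both directions. Of 28 genes of the Nodal and BMP pathways, 6 were higher (21.4%) and 3 lower (10.7%), against 3.0% and 2.91% of all genes. The activin subunit gene Inhba rose and its partner Inhbb fell. Inhba had 139.8, 145 and 158 in the Tet2-WT libraries and 743 and 325 in the Tet2-KO libraries (log2 fold change 1.73, adjusted p = 0.0168) and Inhbb 3537, 3988 and 4329 in the Tet2-WT libraries and 998 and 1549.8 in the Tet2-KO libraries (log2 fold change -1.66, adjusted p = 0.0187), so the more abundant subunit was the one that fell. Antagonists were among the higher genes, with Fst described above, Chrd at 0.91 and the BMP antagonist Grem1 at 1.40. Smad6, an inhibitory Smad, fell, with 849, 789 and 831 in the Tet2-WT libraries and 475 and 440.4 in the Tet2-KO libraries (log2 fold change -0.85, adjusted p = 0.0221). Tdgf1 (Cripto), the Nodal coreceptor, was lower at a high level, from 54868 ± 2695 to 42612 ± 3546 (SD, n = 3 and 2, log2 fold change -0.37, adjusted p = 0.0231). In FGF signalling 1 of 16 ligands, Fgf8, was higher. Of 19 ERK feedback genes, Spred3 and the Ets factor Etv5 were higher (0.85 and 0.44) and Spry4 was lower. Spry4, an inhibitor of receptor tyrosine kinase signalling, had 7666, 8458 and 10006 in Tet2-WT, 11673 and 12809 in Tet2-Mut and 5760.5 and 5494 in Tet2-KO (log2 fold change -0.62, SE 0.11, limma adjusted p = 0.0159), and the Tet2-KO values were below Tet2-WT while those of Tet2-Mut were above it. The difference from Tet2-Mut was -1.12 (adjusted p = 0.00382). With Tet2-WT replicates 1, 2 and 3 and Tet2-KO replicate 1 removed singly, the calls were 1, 1, 1 and 1 of the 28 Nodal and BMP genes, 0, 0, 0 and 0 of the 16 FGF ligands, and 1, 0, 0 and 0 of the 19 ERK feedback genes. The counts of 0 stood beside 2 to 4 members under 0.05 unadjusted and 0 calls by edgeR. The test called 14 of the Nodal and BMP genes (8 higher, 6 lower), 4 of the FGF ligands (4 higher, 0 lower) and 5 of the ERK feedback genes (2 higher, 3 lower) without Tet2-Mut replicate 1 or 2, and 2 of the FGF ligands (1 higher, 1 lower) without Tet2-KO replicate 2.

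Of 21 Notch pathway genes, the ligands Dll3 and Jag1 and the Hes family member Hes6 were higher, at 0.99, 0.54 and 0.61, and 0 were lower. Among 20 genes of retinoic acid metabolism and response, the degrading enzyme Cyp26a1 had 74.1, 97.9 and 59.01 in Tet2-WT, 50.5 and 46.3 in Tet2-Mut and 316 and 227 in Tet2-KO (log2 fold change 1.82, SE 0.29, limma adjusted p = 0.0134). The binding protein Crabp2 had 163, 189 and 208 in the Tet2-WT libraries and 398 and 418 in the Tet2-KO libraries (log2 fold change 1.13, adjusted p = 0.0162). Both were higher in each clone than in any Tet2-WT culture, and Stra8, a retinoic acid target of germ cells, was lower (below). In the Hedgehog pathway 1 of 12 genes, the transducer Smo, was higher (0.60). Of 16 genes of the LIF receptor and Stat3 pathway, 0 were higher and 3 lower. Socs3, the feedback inhibitor that Stat3 induces, had 9133, 8381 and 8501 in the Tet2-WT libraries and 5850.3 and 6505 in the Tet2-KO libraries (log2 fold change -0.49, SE 0.07, limma adjusted p = 0.0101) and Bcl3 was at -0.41. In lysophosphatidic acid signalling, Enpp2 was joined by the receptor Lpar4, also a core gene, with 186, 220.3 and 236 in the Tet2-WT libraries and 999 and 676 in the Tet2-KO libraries (log2 fold change 1.94, SE 0.23, limma adjusted p = 0.00551). The receptor Lpar5 was lower, with 303, 283 and 292 in the Tet2-WT libraries and 158 and 193 in the Tet2-KO libraries (log2 fold change -0.74, adjusted p = 0.0389). Limma called 0, 0, 0 and 0 of the 21 Notch genes, 1, 2, 0 and 1 of the 20 retinoic acid genes, 0, 0, 0 and 0 of the 12 Hedgehog genes, 0, 0, 0 and 0 of the 16 LIF and Stat3 genes, and 2, 2, 2 and 2 of the 10 lysophosphatidic acid genes after dropping Tet2-WT replicates 1, 2 and 3 and Tet2-KO replicate 1 in this order. For a count of 0, 1 to 10 members had an unadjusted p under 0.05, and edgeR gave 0. Those called were 6 of the Notch genes (5 higher, 1 lower), 5 of the retinoic acid genes (4 higher, 1 lower), 2 of the Hedgehog genes (2 higher, 0 lower) and 8 of the LIF and Stat3 genes (2 higher, 6 lower) without Tet2-Mut replicate 1, and 6 of the Notch genes (5 higher, 1 lower), 2 of the Hedgehog genes (2 higher, 0 lower), 8 of the LIF and Stat3 genes (2 higher, 6 lower) and 5 of the lysophosphatidic acid genes (4 higher, 1 lower) without Tet2-Mut replicate 2, and 3 of the Notch genes (2 higher, 1 lower), 3 of the Hedgehog genes (2 higher, 1 lower) and 5 of the LIF and Stat3 genes (0 higher, 5 lower) without Tet2-KO replicate 2.

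Many of the formative and primed genes passed the test. The shares higher and lower were 0% and 4.55% of the naive factors and 6.25% and 6.25% of the core factors, against 3.0% and 2.91% of all genes. Of 23 formative and primed genes, 13 were higher and 0 lower, with a median log2 fold change of 0.85. Dnmt3b, the de novo DNA methyltransferase that marks this state and a core gene, had 20723, 21181 and 21243 in Tet2-WT, 28625 and 21915 in Tet2-Mut and 54039.9 and 39689 in Tet2-KO (chromosome 2, 153649411 to 153687730; log2 fold change 1.14, SE 0.14, limma adjusted p = 0.00564). The POU factor Pou3f1 (Oct6) had 2031, 1941 and 1823 in the Tet2-WT libraries and 6200.2 and 4339 in the Tet2-KO libraries (log2 fold change 1.43, SE 0.21, limma adjusted p = 0.0107). Sox3, an HMG box factor of epiblast and neural progenitors, had 143, 115 and 135 in Tet2-WT, 284 and 219 in Tet2-Mut and 997 and 526 in Tet2-KO (log2 fold change 2.47, SE 0.27, limma adjusted p = 0.00522), and the zinc finger factor Sall2 414, 388 and 388 in Tet2-WT, 846 and 577 in Tet2-Mut and 2004 and 1131 in Tet2-KO (log2 fold change 1.92, SE 0.24, limma adjusted p = 0.00618). In each of these 4 genes the Tet2-KO libraries exceeded all 5 others, with Tet2-KO replicate 1 the higher. Others called were Zic2 (1.14), Zic5 (0.85), Foxd3 (0.74), Grhl2 (0.63), Pim2 (1.85) and Cdh2 (1.30). The list's median relative to Tet2-WT was 0.91 and 0.88 in the 2 Tet2-KO clones. Of 22 naive factors, 0 were higher and 1 lower, with a median of -0.11. Tbx3, a T-box factor of the LIF network, had 5245, 5231 and 5645 in Tet2-WT, 2498 and 2265 in Tet2-Mut and 2523 and 3401 in Tet2-KO (log2 fold change -0.87, SE 0.12, limma adjusted p = 0.00847). It was low in Tet2-Mut too, from which it differed by 0.30 (adjusted p = 0.242). Esrrb, a nuclear receptor of the naive network, had 35353, 33914 and 36242 in the Tet2-WT libraries and 24677 and 31136 in the Tet2-KO libraries (log2 fold change -0.34, adjusted p = 0.0655). Of 16 core factors, Lin28a, an RNA binding protein that blocks let-7 maturation, was higher, from 18017 ± 1102 to 29919 ± 3050.1 (SD, n = 3 and 2, log2 fold change 0.73, adjusted p = 0.0109), and Tdgf1 was lower. Sox2 had 33407, 31721 and 31155 in the Tet2-WT libraries and 26550.3 and 33439 in the Tet2-KO libraries (log2 fold change -0.11, adjusted p = 0.565), with overlapping groups. When Tet2-WT replicates 1, 2 and 3 and Tet2-KO replicate 1 were left out one by one, limma called 3, 3, 3 and 4 of the 23 formative and primed genes, 0, 1, 0 and 1 of the 22 naive factors, and 0, 0, 0 and 0 of the 16 core factors. At 0 calls, an unadjusted p under 0.05 was found for 4 to 9 members, and edgeR gave 0. Called genes were 19 of the formative and primed genes (18 higher, 1 lower), 6 of the naive factors (1 higher, 5 lower) and 5 of the core factors (3 higher, 2 lower) without Tet2-Mut replicate 1 or 2, and 8 of the naive factors (0 higher, 8 lower) without Tet2-KO replicate 2.

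Other lineage lists differed in how many members passed. Of 15 neural and ectoderm genes, 5 were higher and 0 lower. The intermediate filament gene Nes, a neural progenitor marker and core gene, had 1489.6, 1686 and 1317 in Tet2-WT, 2646 and 2575 in Tet2-Mut and 7874 and 4416 in Tet2-KO (log2 fold change 1.98, SE 0.21, limma adjusted p = 0.00522), and the bHLH factor Neurod1, another core gene, 517, 492 and 556 in the Tet2-WT libraries and 1036 and 1285 in the Tet2-KO libraries (log2 fold change 1.15, SE 0.13, limma adjusted p = 0.00551). In both each clone was above every Tet2-WT library. Pax6 was higher than Tet2-WT with 94.9, 143 and 139 in the Tet2-WT libraries and 463 and 271 in the Tet2-KO libraries, but it was high in Tet2-Mut too, from which it differed by -0.37 (adjusted p = 0.539). The early neural factor Sox1 went the other way without a call, 156, 217 and 354 in the Tet2-WT libraries and 88.8 and 76.5 in the Tet2-KO libraries (log2 fold change -1.46, adjusted p = 0.0894). Of 19 endoderm genes, 1 was called, the laminin gene Lamb1 (0.47). The endoderm regulators Gata4, Gata6, Sox17 and Foxa2 were not called, Gata4 having 163, 162 and 248 in the Tet2-WT libraries and 188 and 114 in the Tet2-KO libraries. Of 19 trophectoderm genes, 4 were higher and 2 lower. The higher ones were Cdx2 and the simple epithelial keratins Krt8, Krt18 and Krt19, of which Krt8 had 2539.9, 3158 and 2366 in the Tet2-WT libraries and 10832 and 6010.0 in the Tet2-KO libraries (log2 fold change 1.60, SE 0.23, limma adjusted p = 0.00949). Pecam1, an adhesion molecule of endothelium that ESCs share, was lower, with 4576, 4164 and 4315 in the Tet2-WT libraries and 2317 and 2896 in the Tet2-KO libraries (log2 fold change -0.75, adjusted p = 0.0154). The trophoblast factors Hand1 (123, 94.1 and 101 in the Tet2-WT libraries and 99.1 and 76.5 in the Tet2-KO libraries) and Gata3 (53.3, 41.4 and 63.7 in the Tet2-WT libraries and 53.7 and 37.2 in the Tet2-KO libraries) overlapped between the groups. In fits that lacked Tet2-WT replicates 1, 2 and 3 and Tet2-KO replicate 1 in turn, limma called 2, 2, 2 and 2 of the 15 neural genes, 0, 0, 0 and 0 of the 19 endoderm genes, and 0, 1, 0 and 2 of the 19 trophectoderm genes. Any 0 here came with 1 to 7 members at an unadjusted p under 0.05 and 0 by edgeR. Calls numbered 6 of the neural genes (5 higher, 1 lower) without Tet2-Mut replicate 1 or 2.

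Srf and Yap are factors that respond to actin polymerization and cell tension, and many of their targets encode parts of the cytoskeleton. Of 26 such targets tested, 15 were higher and 0 lower, with a median log2 fold change of 1.13. Relative to Tet2-WT the list stood at 1.63 in Tet2-KO replicate 1 and at 0.63 in the other clone, so replicate 1 lay further out. Actc1, cardiac alpha-actin, had 14.98, 9.41 and 14.2 in Tet2-WT, 16.5 and 7.72 in Tet2-Mut and 299 and 53.8 in Tet2-KO (log2 fold change 3.24, SE 0.70, limma adjusted p = 0.0319). Tagln (SM22), an actin-binding protein of smooth muscle, had 267, 312 and 230.1 in the Tet2-WT libraries and 1951 and 854 in the Tet2-KO libraries (log2 fold change 2.27, SE 0.30, limma adjusted p = 0.00768). The tropomyosin gene Tpm1 was far more abundant, with 7301, 8069.8 and 6753 in the Tet2-WT libraries and 25538 and 13093 in the Tet2-KO libraries (log2 fold change 1.31, SE 0.23, limma adjusted p = 0.0165). In all 3 genes replicate 2 also exceeded every Tet2-WT library. Zyx, a focal adhesion protein, had 1206, 1259 and 1079.9 in the Tet2-WT libraries and 4588 and 2489.6 in the Tet2-KO libraries (log2 fold change 1.52, adjusted p = 0.01002). Among targets more often assigned to Yap, the matricellular gene Ccn1 had 1074, 1501 and 1278 in the Tet2-WT libraries and 6357 and 3006 in the Tet2-KO libraries (log2 fold change 1.78, adjusted p = 0.0109) and Amotl2, a feedback regulator of Yap, 2911, 3462 and 2910.4 in the Tet2-WT libraries and 9767 and 6153 in the Tet2-KO libraries (log2 fold change 1.33, adjusted p = 0.00763). The abundant actin genes took part. Flna, a crosslinker of actin filaments, went from 25076 ± 989.5 to 49799 ± 18139.8 (0.94), Actg1, a cytoplasmic actin, from 75827 ± 6075 to 108338 ± 22741 (0.50) and Cfl1, cofilin, from 45009.7 ± 1171 to 59984 ± 3324 (0.41; each SD, n = 3 and 2).

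Actc1 and Myl9, a regulatory myosin light chain, illustrate the CArG box, the site that Srf binds, in the 250 bases before the start. Capitals mark the match, and strands and source are as for the sequences above. The Actc1 window is chr2:114052876-114053125 on the minus strand, with the box 47 to 38 bases before the start, and the Myl9 window chr2:156775214-156775463 on the plus strand, with the box 161 to 152 bases before it.
Actc1: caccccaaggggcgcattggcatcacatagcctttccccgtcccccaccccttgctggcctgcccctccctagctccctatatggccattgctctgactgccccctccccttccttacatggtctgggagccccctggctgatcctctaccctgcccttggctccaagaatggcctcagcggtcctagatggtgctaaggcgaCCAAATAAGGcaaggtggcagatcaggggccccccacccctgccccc
Myl9: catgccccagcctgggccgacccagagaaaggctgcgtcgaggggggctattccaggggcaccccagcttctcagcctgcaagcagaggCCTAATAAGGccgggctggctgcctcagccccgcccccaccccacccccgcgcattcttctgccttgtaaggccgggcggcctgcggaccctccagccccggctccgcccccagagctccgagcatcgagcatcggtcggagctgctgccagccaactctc
The box, searched on both strands, was in 6 of 23 list members with a promoter in the table (26.1%), 4 of them called (Actc1, Cnn2, Myl9 and Vcl), against 180 of all 12101 genes (1.49%). It was in 3.28% of the higher and 0.807% of the lower genes. The list consists of known Srf and Yap targets, so that such boxes were part of how these genes became known. None of 21 fibroblast list members with a promoter held it. At a share of 1.49% over all genes, a list of that length is too short for this to be a contrast.

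Some fibroblast genes were higher as well. Of 30 genes of feeder fibroblasts, 11 were higher and 0 lower, with a median of 1.06 (1.41 and 0.67 in the 2 Tet2-KO clones). The list shares contractile genes with the Srf and Yap list, Tagln, Tpm2 and Cald1 being called in both. The fibrillar collagen gene Col1a1 had 782, 693 and 733 in Tet2-WT, 1137 and 689 in Tet2-Mut and 2123 and 1444 in Tet2-KO (log2 fold change 1.25, SE 0.22, limma adjusted p = 0.0173) and Col5a1 1098, 1138 and 808 in Tet2-WT, 1221 and 749 in Tet2-Mut and 3739.5 and 2552 in Tet2-KO (log2 fold change 1.62, SE 0.24, limma adjusted p = 0.0104). Prrx1, a mesenchymal homeobox factor, had 33.3, 16.9 and 35.4 in the Tet2-WT libraries and 132 and 100.3 in the Tet2-KO libraries (log2 fold change 2.04, adjusted p = 0.02698). Col3a1, Postn, Thy1, Pdgfrb and Twist2 did not pass. Twist2 had 18.3, 7.53 and 2.36 in the Tet2-WT libraries and 39.2 and 28.9 in the Tet2-KO libraries and Pdgfrb 149, 124 and 117 in the Tet2-WT libraries and 229 and 190.2 in the Tet2-KO libraries. The part of remaining feeder cells in the levels of contractile, collagen and adhesion genes was not tested. Leaving out Tet2-WT replicates 1, 2 and 3 and Tet2-KO replicate 1 one at a time, limma called 2, 3, 0 and 5 of the 26 Srf and Yap targets and 1, 2, 0 and 1 of the 30 fibroblast genes. Beside each 0, 20 to 21 members had an unadjusted p under 0.05, with 0 called by edgeR. Limma called 18 of the fibroblast genes (18 higher, 0 lower) without Tet2-Mut replicate 1, and 17 of the fibroblast genes (17 higher, 0 lower) without Tet2-Mut replicate 2.

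In families of extracellular matrix and junction genes some members passed. Of 36 collagen chains, 5 were higher (Col1a1, Col1a2, Col5a1, Col5a2 and Col7a1) and 1 lower, Col5a3 (-0.91), with a list median of 0.63. Among 14 classical and type II cadherins, Cdh2 (N-cadherin), Cdh11 and Cdh10 were higher and 0 lower. Cdh2 had 258, 331 and 250.2 in the Tet2-WT libraries and 874 and 536 in the Tet2-KO libraries (log2 fold change 1.30, adjusted p = 0.0328). E-cadherin, encoded by Cdh1, had 32788, 31791 and 34170.0 in the Tet2-WT libraries and 35442 and 31884 in the Tet2-KO libraries and was not called (log2 fold change 0.03, adjusted p = 0.845). Of 9 gap junction genes, 2 were higher and 3 lower. Gja1 (connexin 43), a core gene, had 6445, 6493 and 6665 in Tet2-WT, 8342 and 8194 in Tet2-Mut and 14107 and 10840.3 in Tet2-KO (log2 fold change 0.92, SE 0.10, limma adjusted p = 0.00522). Gjb5, another connexin gene, was lower, with 2049.7, 1821 and 1581 in Tet2-WT, 849 and 1199 in Tet2-Mut and 811 and 1160.0 in Tet2-KO (log2 fold change -0.90, adjusted p = 0.0314). Tet2-Mut was low in Gjb5 too, and Tet2-KO differed from it by -0.06 (adjusted p = 0.917). Gjb2 rose from a level near the detection floor, with 10.8, 5.65 and 2.36 in the Tet2-WT libraries and 84.6 and 28.9 in the Tet2-KO libraries. Among 14 keratins only the 3 named above were called. Calls by limma numbered 0, 1, 0 and 0 of the 36 collagen chains, 0, 0, 0 and 0 of the 14 cadherins, 1, 1, 1 and 1 of the 9 gap junction genes, and 0, 1, 0 and 2 of the 14 keratins when Tet2-WT replicates 1, 2 and 3 and Tet2-KO replicate 1 were dropped in turn. In the fits with 0 calls, 3 to 13 members were under 0.05 before adjustment and edgeR gave 0. The calls were 4 of the keratins (3 higher, 1 lower) without Tet2-Mut replicate 1 or 2, and 3 of the keratins (2 higher, 1 lower) without Tet2-KO replicate 2.

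**Figure D4:**
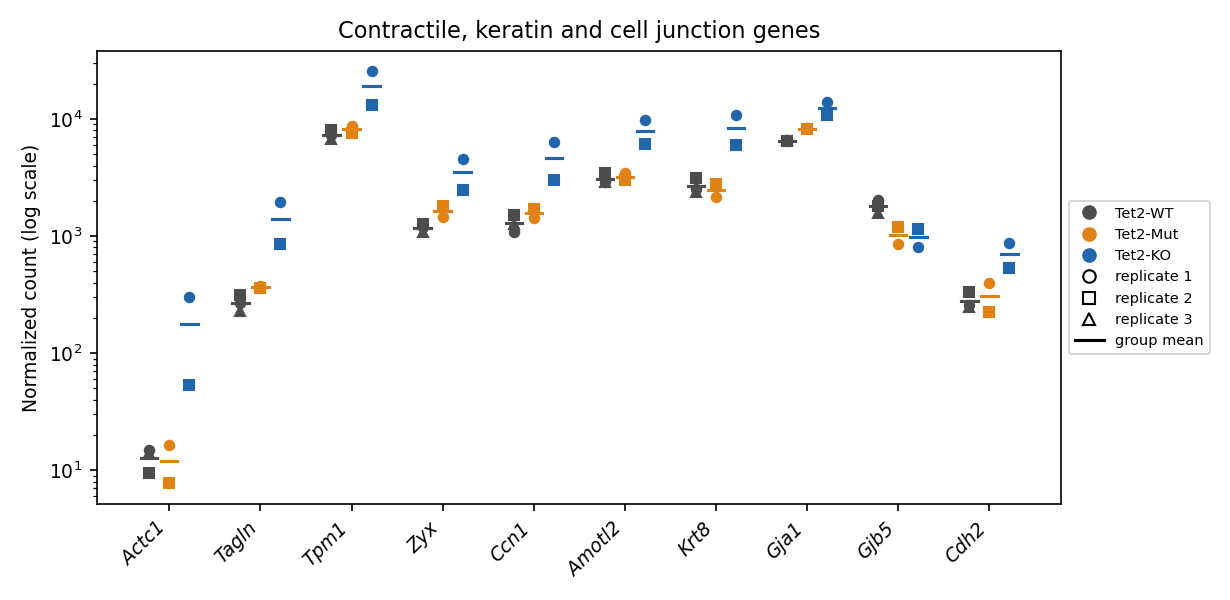
Normalized counts (log scale) of contractile, keratin and junction genes in each library, with group means as lines. Both Tet2-KO clones (blue) lie above Tet2-WT (grey) in 9 genes, with replicate 1 the higher, and below it in Gjb5, where Tet2-Mut (orange) is low as well.

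Guidance and adhesion receptors include calls in both directions. The shares given for each family stand against 3.0% higher and 2.91% lower of all genes. Of 19 ephrins and Eph receptors, 4 were higher (21.1%) and 0 lower. Epha1, a core gene, had 839, 907 and 878 in Tet2-WT, 1118 and 1107 in Tet2-Mut and 2906 and 1859 in Tet2-KO (log2 fold change 1.41, SE 0.16, limma adjusted p = 0.00551), and the ligand Efnb2 816, 795 and 826 in the Tet2-WT libraries and 2064 and 1554 in the Tet2-KO libraries (log2 fold change 1.14, adjusted p = 0.0173). Among 27 semaphorins and plexins, 2 were higher (7.41%) and 4 lower (14.8%). The higher ones were Sema6a, described above, and Sema3c, a secreted semaphorin with 59.9, 58.4 and 75.5 in the Tet2-WT libraries and 419 and 192 in the Tet2-KO libraries (log2 fold change 2.13, adjusted p = 0.0235). All 4 lower ones are membrane-bound semaphorins, with Sema4g at -0.94, Sema4a at -0.96, Sema4b at -0.32 and Sema5b at -1.99. Of 28 protocadherins, Pcdh1 and Pcdh7 were higher (0.99 and 2.65), a share of 7.14%. Among 54 Adgr and Gpr receptors, Adgrl2 and Gpr4 were higher (3.70%) and Adgre5, Adgrd1 and Gpr139 lower (5.56%), not far from the shares of all genes. Adgrd1 had 206, 243 and 229 in the Tet2-WT libraries and 76.4 and 73.4 in the Tet2-KO libraries (log2 fold change -1.58, SE 0.21, limma adjusted p = 0.00828). Of 24 integrins 1 was called, Itgb7 at -0.60, a share of 4.17% that is near that of all genes. Matrix proteases were called in 6 of 41 cases, 2 higher (4.88%) and 4 lower (9.76%). Mmp25, a membrane-anchored protease, had 293, 179 and 323 in the Tet2-WT libraries and 1611 and 1055 in the Tet2-KO libraries (log2 fold change 2.34, adjusted p = 0.00857), while Adam19 and Mmp17 were lower, at -0.55 and -0.64. With Tet2-WT replicates 1, 2 and 3 and Tet2-KO replicate 1 removed singly, the calls were 1, 1, 1 and 1 of the 19 ephrins and Eph receptors, 1, 1, 1 and 1 of the 27 semaphorins and plexins, 1, 1, 0 and 1 of the 28 protocadherins, 2, 1, 1 and 2 of the 54 Adgr and Gpr receptors, 0, 0, 0 and 0 of the 24 integrins, and 1, 1, 1 and 0 of the 41 proteases. The counts of 0 stood beside 3 to 10 members under 0.05 unadjusted and 0 to 1 calls by edgeR. The test called 6 of the ephrins and Eph receptors (5 higher, 1 lower), 2 of the integrins (1 higher, 1 lower) and 15 of the proteases (9 higher, 6 lower) without Tet2-Mut replicate 1, and 5 of the ephrins and Eph receptors (4 higher, 1 lower), 3 of the integrins (1 higher, 2 lower) and 15 of the proteases (9 higher, 6 lower) without Tet2-Mut replicate 2, and 7 of the ephrins and Eph receptors (4 higher, 3 lower) without Tet2-KO replicate 2.

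Germline genes made up the list with the most lower calls among those examined. Of 32 germline and meiosis genes, 10 were lower and 1, Tex19.1, higher, with a median log2 fold change of -0.53. Stag3, a cohesin subunit specific to meiosis and a core gene, had 3262, 2951 and 2881 in Tet2-WT, 2487 and 2352 in Tet2-Mut and 1796 and 1674 in Tet2-KO (chromosome 5, 138272514 to 138312397; log2 fold change -0.80, SE 0.09, limma adjusted p = 0.00522). Tex14, a component of the bridges between germ cells and also a core gene, had 1791, 1769 and 1842 in the Tet2-WT libraries and 942 and 1081 in the Tet2-KO libraries (log2 fold change -0.83, SE 0.10, limma adjusted p = 0.00551). Each Tet2-KO value was below all 5 others in both genes. Stra8, the switch gene for entry into meiosis, had 219.7, 184 and 319 in Tet2-WT, 159 and 262 in Tet2-Mut and 52.6 and 37.2 in Tet2-KO (log2 fold change -2.38, SE 0.32, limma adjusted p = 0.00816), and was lower than in Tet2-Mut by -2.18 (adjusted p = 0.00875). Fkbp6, a chaperone of the piRNA pathway, had 146, 113 and 163 in Tet2-WT, 26.8 and 19.3 in Tet2-Mut and 8.26 and 26.9 in Tet2-KO (log2 fold change -3.13, SE 0.48, limma adjusted p = 0.0114). Here Tet2-Mut was low as well, with a difference of -0.56 (adjusted p = 0.6098). The testis tubulin gene Tuba3a followed the same pattern, with 771, 629 and 779 in Tet2-WT, 356 and 279.8 in Tet2-Mut and 301 and 308 in Tet2-KO (log2 fold change -1.24, adjusted p = 0.00736), although its reads can be shared with near-identical tubulin copies. Others lower were Tex11 (-1.28), Hormad1 (-0.71), Piwil2 (-0.84), Dpep3 (-1.22) and Syce1 (-0.70). The list's median was -0.47 and -0.56 in the 2 Tet2-KO clones.

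Stag3 and Fkbp6 are shown because both carry CACGTG, the E-box that the repressor Mga with Max and the E2f6 complex are known to hold at germline genes. Capitals mark the matches. RefSeq places this Stag3 start inside the gene span given above. The Stag3 window is chr5:138280259-138280508 on the plus strand with the match 170 to 165 bases before the start. The Fkbp6 window is chr5:135350045-135350294 on the minus strand with 2 matches, 101 to 96 and 37 to 32 bases before the start. Fkbp6 has 2 listed starts. The one shown holds the matches and lies inside the gene span (135291704 to 135351809).
Stag3: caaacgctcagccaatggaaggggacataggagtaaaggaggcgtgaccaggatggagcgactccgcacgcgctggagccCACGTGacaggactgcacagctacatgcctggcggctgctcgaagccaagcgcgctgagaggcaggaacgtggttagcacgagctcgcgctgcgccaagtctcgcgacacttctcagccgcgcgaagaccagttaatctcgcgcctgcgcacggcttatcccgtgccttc
Fkbp6: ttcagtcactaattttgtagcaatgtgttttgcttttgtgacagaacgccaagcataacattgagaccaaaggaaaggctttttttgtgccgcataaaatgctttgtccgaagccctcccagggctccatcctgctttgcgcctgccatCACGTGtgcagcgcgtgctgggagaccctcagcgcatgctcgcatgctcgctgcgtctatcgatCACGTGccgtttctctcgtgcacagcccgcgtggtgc
The motif reads the same on both strands. It was in 13 of 29 germline genes with a promoter in the table (44.8%) and in 3 of the 9 called members (Stag3, Hormad1 and Fkbp6), against 1163 of all 12101 genes (9.61%). Among all called genes it was in 10.6% of the higher and 11.8% of the lower. Germline genes that were not called held it as well, Ddx4, Mael and Sycp3 among them.

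The 2-cell-like state is a rare state of ESC cultures. Of 7 of its genes tested, 0 were higher and 2 lower, and 6 had negative fold changes. Zscan4a had 68.2, 22.6 and 49.6 in Tet2-WT, 32.95 and 44.4 in Tet2-Mut and 8.26 and 2.07 in Tet2-KO (log2 fold change -3.03, adjusted p = 0.0277) and belongs to a cluster of near-identical copies. Tmem92 had 19.97, 16.9 and 23.6 in the Tet2-WT libraries and 0 and 0 in the Tet2-KO libraries, so that neither clone gave a read. Eif1a, the member with the highest counts, had 11585, 12314 and 11674 in the Tet2-WT libraries and 12625 and 12536 in the Tet2-KO libraries (log2 fold change 0.09, adjusted p = 0.422) and was not called. Of 12 primordial germ cell genes, Nanos3 and the alkaline phosphatase gene Alpl were lower and 0 higher. Alpl had 11372, 10023 and 9301 in the Tet2-WT libraries and 6428 and 7593 in the Tet2-KO libraries (log2 fold change -0.55, adjusted p = 0.0319). Blimp1, encoded by Prdm1, had 1036, 1086 and 942 in the Tet2-WT libraries and 535 and 865 in the Tet2-KO libraries (log2 fold change -0.58, adjusted p = 0.485). Limma called 3, 4, 2 and 5 of the 32 germline genes, 0, 0, 0 and 1 of the 7 genes of the 2-cell-like state, and 0, 0, 0 and 0 of the 12 primordial germ cell genes after dropping Tet2-WT replicates 1, 2 and 3 and Tet2-KO replicate 1 in this order. For a count of 0, 2 to 7 members had an unadjusted p under 0.05, and edgeR gave 0. Those called were 18 of the germline genes (1 higher, 17 lower) and 7 of the primordial germ cell genes (3 higher, 4 lower) without Tet2-Mut replicate 1, and 18 of the germline genes (1 higher, 17 lower) and 6 of the primordial germ cell genes (2 higher, 4 lower) without Tet2-Mut replicate 2, and 1 of the genes of the 2-cell-like state (0 higher, 1 lower) and 5 of the primordial germ cell genes (0 higher, 5 lower) without Tet2-KO replicate 2.

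Of 43 imprinted genes, 8 were higher and 2 lower. H19, the maternally expressed noncoding RNA beside Igf2 and a core gene, had 3330.5, 2534 and 2752 in Tet2-WT, 126 and 112 in Tet2-Mut and 285 and 542 in Tet2-KO (chromosome 7, 142575530 to 142578146; log2 fold change -2.86, SE 0.24, limma adjusted p = 0.00383). Every clone of both genotypes was far below every Tet2-WT value, with Tet2-KO higher than Tet2-Mut by 1.72 (adjusted p = 0.00788). Meg3 and Rian, maternally expressed noncoding RNAs of the Dlk1 cluster on chromosome 12 and core genes, were higher. Meg3 had 9887, 9651 and 9479.5 in Tet2-WT, 13079.9 and 16415 in Tet2-Mut and 18174 and 16118 in Tet2-KO (log2 fold change 0.82, SE 0.10, limma adjusted p = 0.00551) and Rian 10556, 11158 and 10832 in Tet2-WT, 14135 and 17966 in Tet2-Mut and 18694 and 18888 in Tet2-KO (log2 fold change 0.79, SE 0.09, limma adjusted p = 0.00551). Tet2-KO and Tet2-Mut clones overlapped in Meg3, and the differences between them were 0.22 (adjusted p = 0.281) and 0.24 (adjusted p = 0.235). Further members of that cluster, Mirg (0.76) and the paternally expressed Dlk1 (1.24), were higher as well. Among paternally expressed genes elsewhere, Snrpn had 6038, 6171 and 6575 in the Tet2-WT libraries and 10820.2 and 8834 in the Tet2-KO libraries (log2 fold change 0.64, SE 0.09, limma adjusted p = 0.00979), Mest was at 0.66, Magel2 at 1.74 and Plagl1 at 1.13. Of 10 Rhox and Xlr genes, which lie in clusters on the X chromosome, Rhox6 and Rhox9 were lower. Rhox6 had 1165, 1226 and 888 in Tet2-WT, 189 and 137 in Tet2-Mut and 504 and 669 in Tet2-KO (log2 fold change -0.90, adjusted p = 0.0379). Tet2-KO stood between Tet2-WT and Tet2-Mut in this gene, and above Tet2-Mut by 1.84 (adjusted p = 0.00417). Rhox genes share sequence, so the split of reads among them is uncertain. When Tet2-WT replicates 1, 2 and 3 and Tet2-KO replicate 1 were left out one by one, limma called 3, 3, 3 and 4 of the 43 imprinted genes and 0, 0, 0 and 0 of the 10 Rhox and Xlr genes. At 0 calls, an unadjusted p under 0.05 was found for 3 to 5 members, and edgeR gave 0. Called genes were 16 of the imprinted genes (12 higher, 4 lower) and 4 of the Rhox and Xlr genes (0 higher, 4 lower) without Tet2-Mut replicate 1 or 2.

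**Figure D5:**
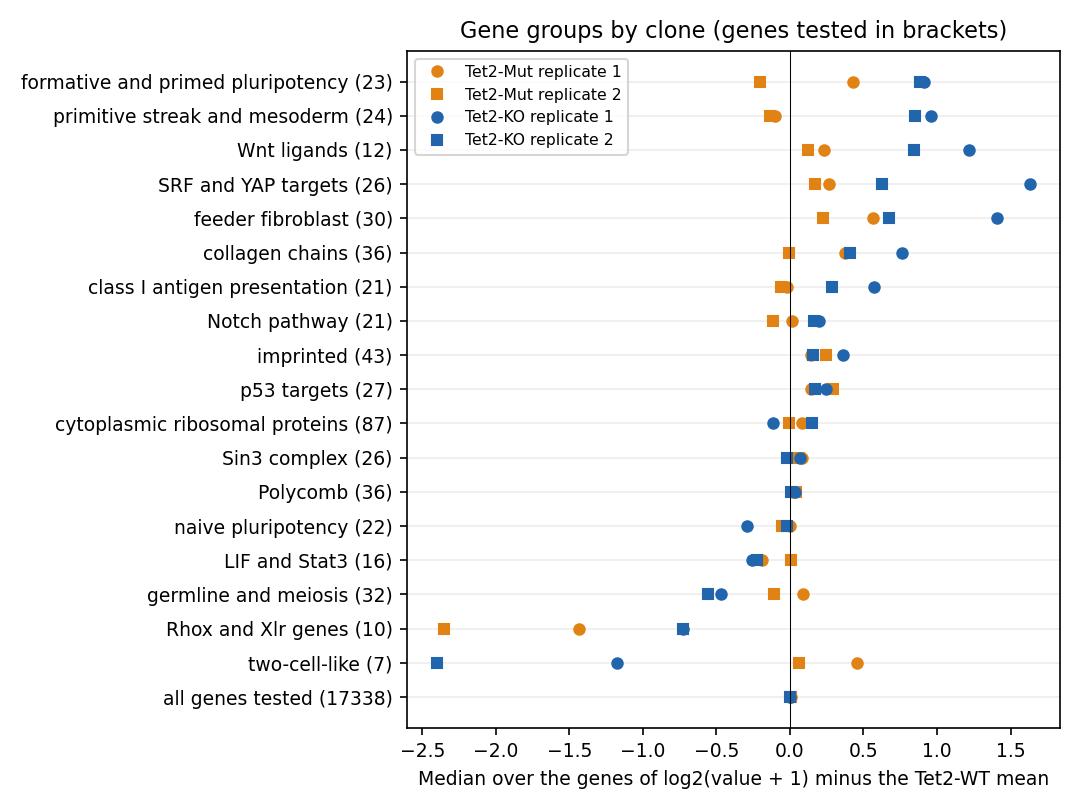
Median over the genes of a group of log2(value + 1) minus the Tet2-WT mean (horizontal axis), for each Tet2-KO and Tet2-Mut clone, with the number of genes tested in brackets. The formative, streak, Wnt ligand and Srf and Yap groups lie to the right in both Tet2-KO clones, and the germline group lies at -0.47 and -0.56. The group of 7 genes of the 2-cell-like state rests on low counts in all members except Eif1a.

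Class I molecules present peptides to T cells. Of 21 genes of the class I pathway, 5 were higher and 0 lower, with a median of 0.42. B2m, the light chain shared by all class I molecules, had 319.6, 281 and 222 in Tet2-WT, 332 and 380.1 in Tet2-Mut and 669 and 612 in Tet2-KO (log2 fold change 1.24, SE 0.18, limma adjusted p = 0.00991). The heavy chain genes H2-K1 and H2-D1 had 1055, 1059 and 854 in the Tet2-WT libraries and 1794 and 1385 in the Tet2-KO libraries (log2 fold change 0.68, adjusted p = 0.0275) and 349, 264 and 328 in the Tet2-WT libraries and 744 and 497 in the Tet2-KO libraries (log2 fold change 0.96, adjusted p = 0.0295), and reads of these related genes can be shared. The peptide transporter Tap2 had 104, 91.3 and 64.9 in the Tet2-WT libraries and 233 and 233 in the Tet2-KO libraries (log2 fold change 1.44, adjusted p = 0.0252), and the peptidase Erap1 was at 1.21. Among 24 interferon-stimulated genes, 2 were higher and 0 lower. Gbp2, an interferon-induced GTPase and one of the higher genes, had 348, 245 and 238 in Tet2-WT, 175 and 77.2 in Tet2-Mut and 1608 and 1139 in Tet2-KO (log2 fold change 2.31, SE 0.33, limma adjusted p = 0.00979). It was lower in Tet2-Mut than in Tet2-WT by the values given, and Tet2-KO exceeded Tet2-Mut by 3.53 (adjusted p = 0.00382). In fits that lacked Tet2-WT replicates 1, 2 and 3 and Tet2-KO replicate 1 in turn, limma called 1, 0, 1 and 0 of the 21 class I genes and 1, 0, 0 and 0 of the 24 interferon-stimulated genes. Any 0 here came with 7 to 9 members at an unadjusted p under 0.05 and 0 to 2 by edgeR. Calls numbered 9 of the class I genes (8 higher, 1 lower) and 9 of the interferon-stimulated genes (9 higher, 0 lower) without Tet2-Mut replicate 1 or 2, and 4 of the interferon-stimulated genes (1 higher, 3 lower) without Tet2-KO replicate 2.

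Growth control and stress lists differed in their shares of higher and lower genes, against 3.0% and 2.91% of all genes. These were 18.5% and 3.70% of p53 targets and 3.13% and 9.38% of cell cycle regulators. They were 0% and 8.0% in glycolysis, 0% and 4.0% in cholesterol synthesis, 8.0% and 4.0% in the stress response and 4.35% each in oxidative stress. Of 27 p53 targets, 5 were higher and 1, Gdf15, lower, and 20 had a positive fold change. Plk2, a kinase that p53 induces, had 1032, 956 and 1039 in the Tet2-WT libraries and 2007 and 1456 in the Tet2-KO libraries (log2 fold change 0.76, adjusted p = 0.0175), the apoptosis gene Bbc3 (Puma) was at 0.45 and Ccng1 at 0.39. Of 32 cell cycle regulators, Ccnd1 was higher and 3 were lower, the Cdk inhibitors Cdkn1b (p27) and Cdkn2c (p18) and the pocket protein Rbl1. Cdkn1b had 2736, 2724 and 2722 in the Tet2-WT libraries and 2229 and 2025 in the Tet2-KO libraries (log2 fold change -0.36, adjusted p = 0.0334). In glycolysis 2 of 25 genes were lower and 0 higher. Hk1, a hexokinase, had 6159.9, 5129.8 and 4436 in Tet2-WT, 2349.9 and 2219 in Tet2-Mut and 2529.8 and 3439.8 in Tet2-KO (log2 fold change -0.82, adjusted p = 0.0220), and the pyruvate dehydrogenase kinase Pdk1 was at -0.40. Hk1 was low in Tet2-Mut too, from which it differed by 0.37 (adjusted p = 0.265). Of 25 cholesterol synthesis genes, 1 was lower, Tm7sf2 (-0.79). In the integrated stress response Sesn2 and Cebpb were higher and Ero1a, an oxidase of the endoplasmic reticulum, lower, with 8607, 7392 and 6407 in the Tet2-WT libraries and 2924 and 4632 in the Tet2-KO libraries (log2 fold change -1.01, adjusted p = 0.0195). Among 23 oxidative stress genes the peroxidase Prdx6, a core gene, was higher, from 11498 ± 272 to 16806 ± 512 (SD, n = 3 and 2, log2 fold change 0.55, SE 0.06, limma adjusted p = 0.00522), and the heme oxygenase Hmox1 lower (-0.36). Leaving out Tet2-WT replicates 1, 2 and 3 and Tet2-KO replicate 1 one at a time, limma called 0, 0, 0 and 0 of the 27 p53 targets, 0, 0, 0 and 0 of the 32 cell cycle regulators, 0, 0, 0 and 0 of the 25 glycolysis genes, 0, 0, 0 and 0 of the 25 cholesterol genes, 0, 0, 0 and 0 of the 25 stress response genes, and 1, 1, 1 and 1 of the 23 oxidative stress genes. Beside each 0, 1 to 14 members had an unadjusted p under 0.05, with 0 called by edgeR. Limma called 10 of the p53 targets (9 higher, 1 lower), 8 of the cell cycle regulators (3 higher, 5 lower), 5 of the glycolysis genes (0 higher, 5 lower), 4 of the cholesterol genes (1 higher, 3 lower), 7 of the stress response genes (5 higher, 2 lower) and 4 of the oxidative stress genes (1 higher, 3 lower) without Tet2-Mut replicate 1 or 2, and 3 of the p53 targets (3 higher, 0 lower), 4 of the cholesterol genes (0 higher, 4 lower), 6 of the stress response genes (5 higher, 1 lower) and 4 of the oxidative stress genes (1 higher, 3 lower) without Tet2-KO replicate 2.

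Calls among most chromatin regulators lay near the shares of all genes, 3.0% higher and 2.91% lower. The shares higher and lower were 0% and 3.85% of the Sin3 genes, 2.78% and 2.78% of the Polycomb genes and 0% and 3.33% of the enhancer regulators. In the short list of Tet, Tdg and Dnmt genes they were 15.4% and 7.69%, the lower gene being Tet2, the target itself. Of 26 genes of the Sin3 complex and its partners, the complex named in the series' title, 0 were higher and 1 lower. That gene was Ogt, the glycosyltransferase that binds Tet2, with 18873, 18322 and 16695 in Tet2-WT, 14333 and 16120.1 in Tet2-Mut and 13190.0 and 14824 in Tet2-KO (log2 fold change -0.36, adjusted p = 0.0408). The scaffold Sin3a had 14206, 13759 and 14236 in the Tet2-WT libraries and 14806 and 14666 in the Tet2-KO libraries (log2 fold change 0.07, adjusted p = 0.556) and the subunit Sap30 4710.2, 4695 and 4729 in the Tet2-WT libraries and 3799 and 4120.0 in the Tet2-KO libraries (log2 fold change -0.25, adjusted p = 0.0567). Of 13 Tet, Tdg and Dnmt genes, Dnmt3b and the glycosylase Tdg (0.34) were higher and Tet2 was lower. Tet1 had 27345, 26939 and 29189 in the Tet2-WT libraries and 23681 and 22462 in the Tet2-KO libraries (log2 fold change -0.27, adjusted p = 0.0852) and the maintenance methyltransferase Dnmt1 22595, 21424 and 21987 in the Tet2-WT libraries and 18329 and 20276 in the Tet2-KO libraries (log2 fold change -0.19, adjusted p = 0.115). Among 36 Polycomb genes, Yaf2 was higher (0.83) and Suz12 lower, with 16359, 15821 and 15477 in the Tet2-WT libraries and 12223 and 12969 in the Tet2-KO libraries (log2 fold change -0.34, adjusted p = 0.0308). Suz12 was low in Tet2-Mut too, with a difference of 0.11 (adjusted p = 0.487). Of 30 coactivators and other enhancer regulators, 1, the acetyltransferase Kat2b, was called, at -0.36. Calls by limma numbered 0, 0, 0 and 0 of the 26 Sin3 genes, 2, 2, 2 and 2 of the 13 Tet, Tdg and Dnmt genes, 0, 0, 0 and 0 of the 36 Polycomb genes, and 0, 0, 0 and 0 of the 30 enhancer regulators when Tet2-WT replicates 1, 2 and 3 and Tet2-KO replicate 1 were dropped in turn. In the fits with 0 calls, 4 to 9 members were under 0.05 before adjustment and edgeR gave 0. The calls were 2 of the Sin3 genes (0 higher, 2 lower), 7 of the Tet, Tdg and Dnmt genes (4 higher, 3 lower), 5 of the Polycomb genes (2 higher, 3 lower) and 3 of the enhancer regulators (0 higher, 3 lower) without Tet2-Mut replicate 1 or 2, and 2 of the Sin3 genes (0 higher, 2 lower), 5 of the Tet, Tdg and Dnmt genes (4 higher, 1 lower) and 2 of the enhancer regulators (1 higher, 1 lower) without Tet2-KO replicate 2.

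Several large families gave no call by limma in either direction. For the 87 cytoplasmic ribosomal protein genes the count was 0 by limma and by edgeR, beside 6 with an unadjusted p under 0.05. Their median was 0.02, but the 2 clones lay on either side of Tet2-WT. The medians were -0.12 and 0.15 in Tet2-KO replicates 1 and 2, and between -0.05 and 0.03 in the Tet2-WT libraries. For 40 proteasome subunits the count was likewise 0 by both, beside 3, with a median of 0.01. For 56 histone genes it was 0 by both, beside 5, with a median of 0.08 (-0.04 and 0.11 in Tet2-KO replicates 1 and 2). For 25 chaperone and heat shock genes it was 0 by both, beside 4. Of 34 nuclear genes of oxidative phosphorylation 1 was called, Cycs, which encodes cytochrome c (0.29). The medians of that list were -0.13 and 0.07 in Tet2-KO replicates 1 and 2, and between -0.02 and 0.03 in the Tet2-WT libraries. With Tet2-WT replicates 1, 2 and 3 and Tet2-KO replicate 1 removed singly, the calls were 0, 0, 0 and 0 of the 87 ribosomal genes, 0, 0, 0 and 0 of the 40 proteasome genes, 0, 0, 0 and 0 of the 56 histone genes, 0, 0, 0 and 1 of the 25 chaperone genes, and 0, 0, 0 and 0 of the 34 oxidative phosphorylation genes. The counts of 0 stood beside 1 to 30 members under 0.05 unadjusted and 0 calls by edgeR. The test called 3 of the ribosomal genes (0 higher, 3 lower), 1 of the proteasome genes (1 higher, 0 lower), 2 of the chaperone genes (0 higher, 2 lower) and 2 of the oxidative phosphorylation genes (1 higher, 1 lower) without Tet2-Mut replicate 1 or 2, and 3 of the ribosomal genes (0 higher, 3 lower), 1 of the histone genes (0 higher, 1 lower) and 1 of the oxidative phosphorylation genes (0 higher, 1 lower) without Tet2-KO replicate 2. DESeq2 called 1 ribosomal, 1 proteasome and 2 chaperone genes, and 0 histone genes.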

How the data were processed

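RNA-seq of 7 ESC libraries (Tet2-WT n = 3, Tet2-Mut n = 2, Tet2-KO n = 2) was used. The series' 3 bisulfite and 18 CUT&Tag samples were not analysed here. The values the authors deposited are a signal, gene counts divided by DESeq2 size factors. Tools listed, per the submitters' processing notes, are DESeq2, featureCounts, STAR 2.7.3a and Trim Galore 0.6.5, and mm10 is the build. Annotation and strand setting are not given in the sources used here, so overlapping and antisense genes cannot be separated. Each column's values were whole multiples of 1 step in 100% of cases (tolerance 0.01 reads), which gave back the reads. Of values from 1 to 20 reads, 72.1% to 75.2% were even, so mates of a pair may have been counted singly. No gene had fewer than 71 reads in all, so the table had been filtered before deposit.

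Values were tested as log2(normalized count + 1) with limma 3.58.1 (R 4.3.3), with 1 model of group means over 7 libraries, a prior that follows the mean (residual degrees of freedom 4, prior 5.03) and Benjamini-Hochberg adjustment over all genes tested at 0.05. Fold changes on this scale understate those of low genes. RefSeq (GRCm38.p6, the mm10 build) gave positions for 16109 genes (92.9%). Values after ± are SD. The fit was tested on simulated counts.

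Genes named were Tet2, the 15 called genes with the highest and the 15 with the lowest log2 fold change (higher group's mean at least 50, libraries not overlapping, no predicted-gene name), the 6 largest rises and falls of the mean, up to 4 called members per list with the smallest p, the 6 most abundant called genes of chromosome 8 and all cell type markers. Other list members and core genes were picked after their values were seen. Members, lists and families were chosen with earlier results of these data known. Alternatives were other pseudocounts, filters, scalings and priors, only the 2 groups, a replicate block, each library left out, and edgeR 4.0.16 and DESeq2 1.42.0 on the reads. A few genes are not reported here.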

Additional observations from a re-analysis of the deposited data

How the results depend on the processing

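The 521 higher and 504 lower genes became 1059 and 1100 with only the 2 groups in the fit, 1016 and 955 with DESeq2 on the reads, and 9 and 10 without a mean trend in the prior. With each library left out in turn, the higher genes ranged from 54 to 1053 and the lower from 31 to 1107. The replicate numbers gave no sign of pairing. Correlations of same-numbered deviations ran from -0.07 to 0.09, and not every library correlated best with its own number. In a group of 2 libraries the deviations mirror each other, so few of these values are independent. The check therefore cannot decide whether libraries were paired. A fit with a replicate block called 10 higher and 5 lower genes. Tet2 kept its log2 fold change of -1.15 without a mean trend, with an adjusted p of 0.0742, and passed in all other fits run. The pseudocounts, filters, upper quartile or quantile scaling, size factors from outside chromosome 8, a robust prior and edgeR (649 higher, 461 lower) kept both counts within 1.5 times. The median of chromosome 8 stayed within 1 SD of the 2 clones in all fits. Of 187 called genes that the naming rule took, 185 were called in the same direction by edgeR, 187 by DESeq2, 158 without Tet2-KO replicate 2, 44 without replicate 1, 11 with a replicate block, 5 without a mean trend, and 25 with every library left out in turn; no sign changed. Low counts limit genes near the floor of 3 reads, and 111 higher genes had a Tet2-WT mean under 100.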

Other observations

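Genes of excitable cells and transporters, which no comparison above covers, were called in single members. The subunit gene Gabra3 of the GABA-A receptor had 8.32, 20.7 and 7.08 in the Tet2-WT libraries and 142 and 68.2 in the Tet2-KO libraries (log2 fold change 3.08, SE 0.73, limma adjusted p = 0.0422), and the glutamate receptor Grm6 23.3, 25.4 and 37.8 in the Tet2-WT libraries and 122 and 130.3 in the Tet2-KO libraries (log2 fold change 2.12, adjusted p = 0.0156). Grin1, the obligatory subunit of NMDA receptors, was lower, with 1911, 1304 and 1176 in Tet2-WT, 302 and 96.5 in Tet2-Mut and 92.9 and 402 in Tet2-KO (log2 fold change -2.88, SE 0.61, limma adjusted p = 0.0295). It was low in Tet2-Mut too, from which it differed by 0.18 (adjusted p = 0.915). Among 30 calcium and sodium channel genes, 2 were higher and 1 lower. The T-type calcium channel gene Cacna1g had 64.1, 41.4 and 42.5 in the Tet2-WT libraries and 267 and 169.6 in the Tet2-KO libraries (log2 fold change 2.12, adjusted p = 0.01705), while the sodium channel gene Scn3a had 342, 410.5 and 474 in Tet2-WT, 574 and 569 in Tet2-Mut and 183 and 177 in Tet2-KO (log2 fold change -1.17, SE 0.17, limma adjusted p = 0.00947). Tet2-KO was less than Tet2-Mut in Scn3a by -1.66 (adjusted p = 0.00382). The mechanosensitive channel gene Piezo2 had 31.6, 33.9 and 25.96 in Tet2-WT, 24.7 and 9.65 in Tet2-Mut and 272 and 184 in Tet2-KO (log2 fold change 2.84, SE 0.43, limma adjusted p = 0.0109), with both Tet2-KO values above all others. Solute carriers were called in 14 of 254 cases, 5 higher (1.97%) and 9 lower (3.54%), near the 3.0% and 2.91% of all genes. The anion exchanger gene Slc4a9, a core gene, had 126, 98.8 and 106 in Tet2-WT, 42.2 and 55.95 in Tet2-Mut and 18.6 and 13.4 in Tet2-KO (log2 fold change -2.72, SE 0.32, limma adjusted p = 0.00551), and the mitochondrial ornithine carrier Slc25a15, also a core gene, 2911, 3041 and 3128 in the Tet2-WT libraries and 1889 and 1974 in the Tet2-KO libraries (log2 fold change -0.65, SE 0.08, limma adjusted p = 0.00551). The fatty acid transporter Slc27a2 was higher, with 677, 750.3 and 908 in the Tet2-WT libraries and 2502 and 1806 in the Tet2-KO libraries (log2 fold change 1.46, adjusted p = 0.0134). Limma called 0, 0, 0 and 0 of the 14 glutamate receptors, 0, 0, 0 and 0 of the 8 GABA-A subunits, 1, 0, 0 and 0 of the 30 calcium and sodium channels, and 2, 3, 2 and 2 of the 254 solute carriers after dropping Tet2-WT replicates 1, 2 and 3 and Tet2-KO replicate 1 in this order. For a count of 0, 1 to 7 members had an unadjusted p under 0.05, and edgeR gave 0. Those called were 4 of the glutamate receptors (2 higher, 2 lower), 6 of the calcium and sodium channels (3 higher, 3 lower) and 38 of the solute carriers (13 higher, 25 lower) without Tet2-Mut replicate 1, and 4 of the glutamate receptors (2 higher, 2 lower), 2 of the GABA-A subunits (1 higher, 1 lower), 6 of the calcium and sodium channels (3 higher, 3 lower) and 38 of the solute carriers (13 higher, 25 lower) without Tet2-Mut replicate 2, and 0 of the GABA-A subunits (0 higher, 0 lower) and 26 of the solute carriers (8 higher, 18 lower) without Tet2-KO replicate 2.

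Among transcription factor families, 3 of 18 Sox genes were higher (Sox3, Sox4 and Sox11) and 1, Sox15, lower. Sox4 had 1508, 1631 and 1619 in Tet2-WT, 3405 and 2516 in Tet2-Mut and 5069 and 3195 in Tet2-KO (log2 fold change 1.34, SE 0.19, limma adjusted p = 0.00896) and Sox15 2061, 1914 and 1682 in Tet2-WT, 985 and 1404 in Tet2-Mut and 993 and 1163 in Tet2-KO (log2 fold change -0.81, adjusted p = 0.0243). Of 32 Fox genes, Foxi3, Foxd3 and Foxh1 were higher and 0 lower. Foxi3, a core gene of placode ectoderm, had 223, 220.3 and 249 in the Tet2-WT libraries and 1003 and 572 in the Tet2-KO libraries (log2 fold change 1.71, SE 0.22, limma adjusted p = 0.00763). Zinc finger genes of the Zfp series were called in 12 of 388 cases, 7 higher (1.80%) and 5 lower (1.29%). Both shares were below the 3.0% and 2.91% of all genes. Of those called, Zfp608 had 239.7, 238 and 196 in the Tet2-WT libraries and 1202 and 762 in the Tet2-KO libraries (log2 fold change 2.09, adjusted p = 0.0174). Zfp536 had 37.4, 32.01 and 38.9 in Tet2-WT, 12.4 and 9.65 in Tet2-Mut and 3.096 and 4.14 in Tet2-KO (log2 fold change -3.01, adjusted p = 0.0126). The 11 Hox genes tested gave 0 calls by limma and by edgeR, beside 3 with an unadjusted p under 0.05, and the 5 Gata genes gave 0 by both and 0 under 0.05 unadjusted. When Tet2-WT replicates 1, 2 and 3 and Tet2-KO replicate 1 were left out one by one, limma called 1, 1, 1 and 2 of the 18 Sox genes, 1, 1, 1 and 1 of the 32 Fox genes, and 0, 0, 0 and 0 of the 388 Zfp genes. At 0 calls, an unadjusted p under 0.05 was found for 34 to 56 members, and edgeR gave 0. Called genes were 7 of the Fox genes (5 higher, 2 lower) and 32 of the Zfp genes (22 higher, 10 lower) without Tet2-Mut replicate 1, and 6 of the Fox genes (4 higher, 2 lower) and 32 of the Zfp genes (22 higher, 10 lower) without Tet2-Mut replicate 2, and 4 of the Fox genes (3 higher, 1 lower) and 23 of the Zfp genes (16 higher, 7 lower) without Tet2-KO replicate 2.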
